A study of Mus musculus with 9 samples.

Results

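Interleukin-6 family ligands, the receptor chains that bind them, and the intracellular factors Stat3 and Socs3 are described here in 3T3-L1 preadipocytes treated with X-1 or X-3. The genes were taken from a list of 10 (Il6, Lif, Il11, Clcf1, Osmr, Il6st, Il6ra, Lifr, Socs3 and Stat3), and every gene probe that carried one of these names was kept. This gave 15 of the array's 41174 gene probes and 9 of the 16733 genes tested. No probe carried the name Lif. 3T3-L1 is an established mouse fibroblast line that can be turned into fat cells. The groups were X-1 at 70 µM for 24 h, X-3 at 70 µM for 24 h, and a control without either compound, with 3 arrays each. Cells of all groups had been grown in 10% fetal bovine serum and deprived of serum for 48 h before the 24 h of treatment, and the labels name no differentiation step. X-1 and X-3 are code names, and the series title calls both derivatives of mangiferin, a plant polyphenol.

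Cytokines of the IL-6 family signal through the shared receptor chain gp130, the product of Il6st. A ligand first meets a private receptor chain, such as the IL-6 receptor alpha chain, or pairs gp130 with the LIF receptor or the oncostatin M receptor. JAK kinases bound to the receptors then phosphorylate STAT3, which enters the nucleus and induces target genes, among them Socs3, whose product blocks gp130 and ends the signal. In fat tissue, preadipocytes are a known source of IL-6, and LIF receptor and gp130 signalling is known to affect adipocyte differentiation.

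The promoters of Il6 and Socs3 are shown because these genes, a ligand and a feedback inhibitor, were among those with the largest differences from control. Each window runs from 250 bases before to 50 bases after the RefSeq gene start (GRCm38.p6), on the strand of the gene. Il6 is at chr5:30012864-30013163 on the plus strand and Socs3 at chr11:117969317-117969616 on the minus strand. Capitals mark the matches to the motifs searched.
Il6: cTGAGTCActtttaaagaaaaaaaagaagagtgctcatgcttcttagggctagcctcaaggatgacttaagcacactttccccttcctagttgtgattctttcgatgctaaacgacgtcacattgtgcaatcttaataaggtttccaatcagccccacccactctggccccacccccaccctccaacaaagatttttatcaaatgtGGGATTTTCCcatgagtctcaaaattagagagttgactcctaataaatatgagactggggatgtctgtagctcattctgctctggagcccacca
Socs3: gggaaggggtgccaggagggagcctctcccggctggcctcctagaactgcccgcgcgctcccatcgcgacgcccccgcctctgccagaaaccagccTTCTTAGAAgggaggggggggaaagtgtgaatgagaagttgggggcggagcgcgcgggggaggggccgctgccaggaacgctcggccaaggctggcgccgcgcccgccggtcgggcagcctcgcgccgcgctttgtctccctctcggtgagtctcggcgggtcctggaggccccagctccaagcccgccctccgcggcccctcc
In the Il6 window the capitals mark an AP-1 motif (TGANTCA) whose first base is at position −249 from the gene start, and an NF-kB motif whose first base is at −44. In the Socs3 window they mark a STAT motif (TTCNNNGAA) whose first base is at −154. No match overlapped another in these windows. Of all 32851 RefSeq mouse windows of this length, 8.30% held the STAT motif, 7.81% the AP-1 motif and 1.63% the NF-kB motif on either strand. Windows were given for 9 of the 10 genes, with 11 windows in all, of which 1 held the STAT motif, 4 the AP-1 motif and 1 the NF-kB motif. The AP-1 matches lay in Il6, Lif, Osmr and the second window of Il11. The cAMP response element TGACGTCA was in 0 of the 11 windows, against 1.79% of all windows. The hypoxia response cores ACGTG and GCGTG were in 1 and 5 of the 11 windows, against 19.6% and 32.4% of all windows. A match is a stretch of letters, and binding was not measured.

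The probes of Lifr are shown because they gave different answers along the transcript. Each probe is 60 bases long, and its first 30 bases are printed with their position on chromosome 15 (plus strand, mm9, the build the files name). All 5 were assigned to the same Lifr transcript by the array's annotation, at bases 2158, 2324, 3232, 3323 and 7563, and the name of each line gives the base.
Lifr 2158: tgcactaaccagggataccaactgttacgt
Lifr 2324: atttattttactttcagaaaggagagagag
Lifr 3232: tccatcaattccaggcaattcttgattcct
Lifr 3323: agaacaaaccaaatgactaaccaggtcacc
Lifr 7563: gttaatcttttagacataaccctagaatat
The probe at base 2158 is annotated over chr15:7134761-7135567, a stretch longer than the probe. The others lie at chr15:7135674-7135733, chr15:7141059-7141118, chr15:7141150-7141209 and chr15:7145390-7145449. For the probe at base 2158 the annotation also lists a second RefSeq transcript of Lifr. Mouse cells are known to make a soluble form of the LIF receptor from an alternative Lifr mRNA.

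The arrays each carried 43379 gene spots, of which 0 were saturated and 57.9% to 67.1% were well above background by the scanner software's test. Levels are log2 intensity minus the array's 75th percentile, called log2 level below, so that a negative level is below that percentile and not below background. All 15 probes were well above background on all 9 arrays. Same-numbered arrays shared a slide. Slide 1 differed from slides 2 and 3 in scan day and software version, and gave no usable spike-in signal. The control, X-1 and X-3 were at positions 1, 2 and 3 on each slide, and the effect of position cannot be told apart from that of the group. All 10 preadipocyte and fibroblast markers were above background in every group, with a summed log2 level of 10.6 to 10.9 with X-1, 10.6 to 10.7 with X-3, and 10.6 to 10.8 in controls. With each compound Pdgfra, Pdgfrb and Thy1 were called lower, and Dlk1, Ly6a and Cd34 higher. Of 8 leukocyte markers 4 were (3 called higher and 1 lower with each compound), and Ptprc, Adgre1, Itgam and Tyrobp were not. The summed log2 level of the leukocyte list was 1.71 to 1.96 with X-1, 1.95 to 2.15 with X-3, and 1.64 to 1.76 in controls. That of 4 epithelial markers was −1.81 to −1.49 with X-1, −1.22 to −0.97 with X-3, and −3.44 to −3.21 in controls. That of 6 adipocyte markers was −1.21 to −0.75 with X-1, −1.04 to −0.83 with X-3, and −0.51 to −0.35 in controls. The lymphocyte list stood at −1.91 to −1.52 with X-1, −1.71 to −1.59 with X-3, and −2.04 to −1.96 in controls. The endothelial list stood at −3.03 to −2.69 with X-1, −2.78 to −2.67 with X-3, and −2.73 to −2.55 in controls. The part of these markers in the results was not tested, and in such bulk samples fewer cells of a type and less RNA per cell cannot be told apart.

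Against control, 8 of the 9 genes were higher with X-1 and 0 were lower (limma, adjusted p under 0.05), where 28.0% of all genes tested were called higher, 28.2% lower and 56.3% either way. With X-3 again 8 of the 9 were higher and 0 lower, where 28.9% of all genes were called higher, 26.4% lower and 55.3% either way. The gene outside the count was Il11 with X-1 and Stat3 with X-3. The median difference of the 9 genes was 1.36 log2 with X-1 and 1.14 with X-3, beside 0.058 and 0.054 over all genes. These comparisons share the 3 control arrays. Both counts were smaller with spike-in scaling, which also left out slide 1. Scaled on the spike-in RNA of slides 2 and 3, the median of all genes moved by −0.89 with X-1 and −0.71 with X-3, and 4 of the 9 genes were called higher with each compound. Under that scaling the X-1 differences of Clcf1, Il6st, Stat3 and Il11 turned negative (−0.34, −0.18, −0.04 and −0.45, none called). In each comparison of the spike-in fit, the limma adjusted p ranked the 9 genes by the size of their difference. A spike-in call, here and below, thus works as a cut-off on size and is not comparable with a call in the main fit. The split of all called genes also moved to 1542 higher and 9938 lower with X-1, against 4689 and 4727 under percentile scaling, and to 1845 higher and 8379 lower with X-3, against 4837 and 4417. With the array median in place of the 75th percentile the splits were 3126 higher and 5115 lower with X-1, and 3081 and 4875 with X-3.

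**Figure D1:**
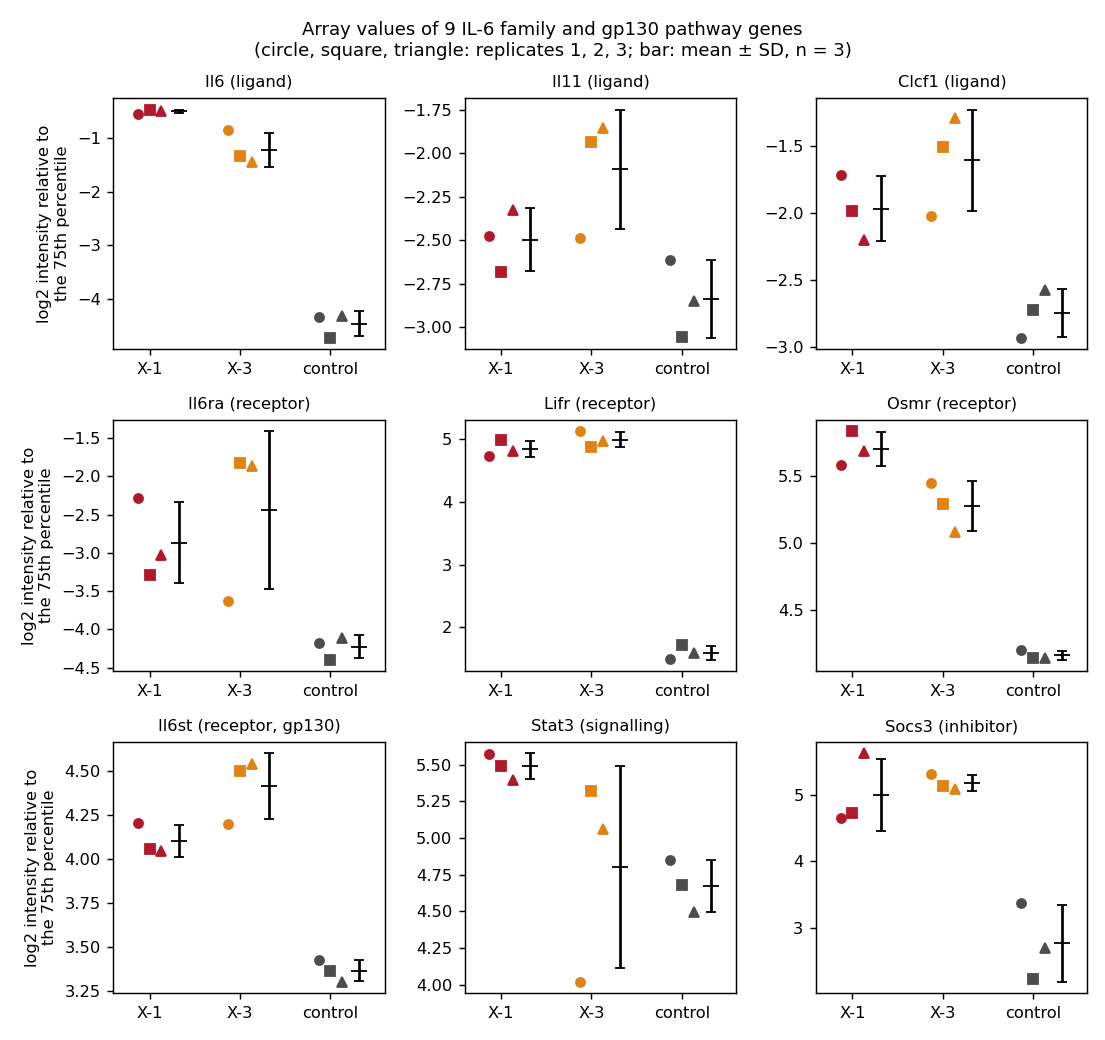
Log2 intensity relative to the array's 75th percentile for the 9 genes, with 1 panel per gene, and X-1, X-3 and control from left to right. Symbols are the 3 arrays of a group by replicate number and bars are the mean ± SD (n = 3). For Il6, Lifr, Socs3, Osmr, Il6st, Clcf1 and Il6ra every treated array lies above every control with both compounds. The share of all genes that separate in this way was not computed. Replicate 1 of X-3 lies apart from the other 2 X-3 arrays for Stat3 and Il6ra.

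Il6 encodes interleukin-6 itself. Its probe lies at chr5:30346362-30346421 (plus strand, mm9). Its log2 level was −0.55, −0.48 and −0.50 with X-1 and −0.86, −1.34 and −1.46 with X-3, against −4.33, −4.72 and −4.33 in controls (replicates 1, 2 and 3, the order used throughout). The 3 groups did not overlap, and X-1 lay above X-3. Il6 rose by 3.95 ± 0.18 log2 with X-1 (SE, 15.5-fold, limma adjusted p = 5.22e-07) and by 3.24 ± 0.18 with X-3 (9.47-fold, adjusted p = 1.69e-06). The difference ranked 115 from the top among 16733 genes with X-1, and 208 with X-3. On the 3 slides taken singly it was 3.78, 4.24 and 3.83 with X-1, and 3.48, 3.39 and 2.87 with X-3. It was also called with spike-in scaling, at 3.14 with X-1 and 2.43 with X-3. With normexp background correction the X-1 difference was smaller, at 2.90, and called.

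Clcf1 encodes cardiotrophin-like cytokine factor, a ligand of the ciliary neurotrophic factor receptor complex. Its probe lies at chr19:4222480-4222539 (plus strand, mm9). Its log2 level was −1.71, −1.98 and −2.20 with X-1 and −2.02, −1.50 and −1.28 with X-3, against −2.93, −2.72 and −2.57 in controls. All treated arrays lay above all controls. Clcf1 rose by 0.78 ± 0.21 with X-1 (1.71-fold, limma adjusted p = 0.0117) and by 1.14 ± 0.21 with X-3 (2.20-fold, adjusted p = 0.00162), but with spike-in scaling the values were −0.34 with X-1 and 0.55 with X-3, neither called.

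Il11 encodes interleukin-11, which signals through its own alpha chain and gp130. Its probe lies at chr7:4724847-4724906 (minus strand, mm9). The Il11 log2 level was −2.48, −2.69 and −2.33 with X-1 and −2.49, −1.93 and −1.85 with X-3, against −2.61, −3.06 and −2.85 in controls. X-1 overlapped the controls and X-3 did not. Il11 rose by 0.75 ± 0.20 with X-3 (1.68-fold, limma adjusted p = 0.0108), and differed by 0.34 ± 0.20 with X-1 (95% CI −0.11 to 0.79, adjusted p = 0.170). The X-3 difference was 0.13 on slide 1, and 1.12 and 1.00 on slides 2 and 3, and with spike-in scaling it was 0.36 and not called.

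For Lif, 1 further probe is described as leukemia inhibitory factor by the array's annotation but is named only by a cDNA accession, so it falls outside the rule. Its log2 level was −2.80, −2.61 and −2.60 with X-1 and −2.23, −2.34 and −2.46 with X-3, against −2.77, −2.89 and −2.53 in controls. The X-1 arrays overlapped the controls and the X-3 arrays did not. These values are given as a description only, since whether the probe measures the spliced Lif mRNA was not tested.

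Of 7 other ligand genes of the family 5 were measured. With X-1, 1 was higher, 1 lower and 3 not called, and with X-3, 2 were higher, 1 lower and 2 not called. Over all genes tested the shares called were 28.0% higher and 28.2% lower with X-1, and 28.9% and 26.4% with X-3. Ctf1, which encodes cardiotrophin-1, fell with both compounds. Its log2 level was −0.77, −0.18 and −0.17 with X-1 and −0.03, −0.60 and −0.50 with X-3, against 2.53, 2.82 and 2.74 in controls, with no overlap. The difference was −3.07 ± 0.21 with X-1 (limma adjusted p = 3.61e-06) and −3.07 ± 0.21 with X-3 (adjusted p = 4.87e-06). Cntf, the ciliary neurotrophic factor gene, rose by 1.21 ± 0.12 with X-1 and by 0.79 ± 0.12 with X-3, and neither was called with spike-in scaling (0.25 and 0.04). Il27, a subunit of interleukin-27, was called higher with X-3 at 0.32 ± 0.12 (limma adjusted p = 0.0438). This call was lost without any 1 of the 9 arrays, with replicate number as a block (adjusted p = 0.0506), and under every other alternative run except the mean of probes, and the value turned to −0.44 with spike-in scaling. Osm, the oncostatin M gene, was well above background on 0 X-1 arrays, 1 X-3 array and 0 control arrays and was not tested.

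Lifr encodes the LIF receptor, which pairs with gp130 for LIF and several related ligands. At its brightest probe, at base 2158, the log2 level was 4.74, 4.99 and 4.82 with X-1 and 5.13, 4.88 and 4.98 with X-3, against 1.49, 1.71 and 1.58 in controls. Treated and control arrays did not overlap, while X-1 and X-3 did. Lifr at this probe rose by 3.25 ± 0.13 with X-1 (9.52-fold, limma adjusted p = 2.74e-07) and by 3.40 ± 0.13 with X-3 (10.6-fold, adjusted p = 3.42e-07). It was also called with spike-in scaling, at 2.35 with X-1 and 2.58 with X-3.

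The other Lifr probes split by position. Differences at single probes come from a fit over 25285 probes, where 54.8% were called with X-1 (28.1% higher, 26.7% lower), 54.1% with X-3 (28.5% higher, 25.5% lower) and 9.06% between the compounds (3.32% higher with X-1, 5.74% lower). At base 2324 the log2 level was −1.36, −1.48 and −1.33 with X-1 and −2.57, −1.67 and −1.83 with X-3, against −3.65, −3.73 and −3.45 in controls. At base 3232 it was 1.87, 1.99 and 1.77 with X-1 and 1.35, 1.36 and 1.32 with X-3, against −1.59, −1.18 and −1.23 in controls. At base 3323 it was 2.12, 2.37 and 2.20 with X-1 and 1.75, 1.70 and 1.69 with X-3, against −1.39, −0.91 and −1.01 in controls. At these 3 probes every treated array lay above every control. Lifr rose there by 2.22 ± 0.22, 3.21 ± 0.14 and 3.33 ± 0.15 with X-1 and by 1.59 ± 0.22, 2.68 ± 0.14 and 2.82 ± 0.15 with X-3.

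At base 7563, the probe farthest toward the 3′ end, the log2 level of Lifr was −0.41, −0.22 and −0.16 with X-1 and −1.48, −1.25 and −1.29 with X-3, against −0.99, −0.42 and −0.68 in controls. X-3 lay below all controls. All X-1 arrays lay above the controls, though the lowest X-1 array was nearly level with the highest control. At this probe Lifr fell by 0.64 ± 0.17 with X-3 (limma adjusted p = 0.0100 over all probes), and differed by 0.43 ± 0.17 with X-1 (95% CI 0.05 to 0.81, adjusted p = 0.0542). With replicate number as a block the X-1 difference was called (adjusted p = 0.0235), and with spike-in scaling it was −0.54 and not called. The X-3 difference was −0.49, −0.83 and −0.62 on slides 1, 2 and 3.

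The change of Lifr at the upstream probes relative to the probe at base 7563 is taken within each array. For the same arrays it is therefore the same under any scaling that shifts a whole array by 1 value. Percentile, median and spike-in scaling do so, but the spike-in setting run here used slides 2 and 3 only. With X-1 this relative change was 2.82, 1.79, 2.78 and 2.90 log2 at bases 2158, 2324, 3232 and 3323, and with X-3 it was 4.04, 2.23, 3.32 and 3.46. In each of these 8 comparisons treated and control arrays did not overlap (two-sided exact permutation p = 0.1, n = 3 arrays per group, the smallest p that 3 against 3 arrays allow). The probes of 1 transcript are not replicates of each other. The 8 comparisons also share the probe at base 7563 and the same control arrays. How often probes of other genes on the array separate in this way was not computed. Osmr and Il6ra, with 2 probes each, showed no such split. Their relative changes between probes lay between −0.27 and 0.17 against control, and groups overlapped (exact permutation p from 0.3 to 0.7, n = 3).

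**Figure D2:**
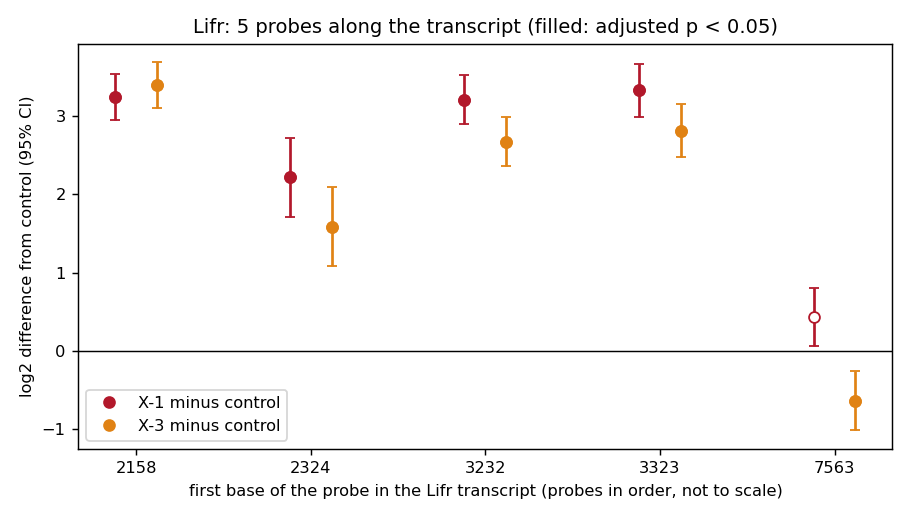
Log2 difference from control at the 5 Lifr probes, in order along the transcript, for X-1 (left of each pair) and X-3 (right), with 95% confidence intervals from the limma fit over all probes. Filled points had an adjusted p under 0.05. The 4 upstream probes lie between 1.59 and 3.40, and the probe at base 7563 at 0.43 with X-1 (−0.54 with spike-in scaling) and −0.64 with X-3.

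Osmr encodes the oncostatin M receptor. Its probes lie at chr15:6763686-6763745 and chr15:6765043-6765102 (minus strand, mm9). At its brighter probe, at base 4666, the log2 level was 5.58, 5.83 and 5.68 with X-1 and 5.45, 5.29 and 5.08 with X-3, against 4.20, 4.15 and 4.14 in controls. No group overlapped another. Osmr rose by 1.53 ± 0.13 with X-1 (2.89-fold, limma adjusted p = 1.27e-05) and by 1.11 ± 0.13 with X-3 (2.15-fold, adjusted p = 0.000111). With spike-in scaling the X-1 difference was 0.71 and called, and the X-3 difference 0.34 and not called. The probe at base 3309 gave 1.71 ± 0.29 with X-1 and 0.89 ± 0.29 with X-3, both called, but not with spike-in scaling (0.64 and 0.19). The X-3 call at this probe was also lost with median scaling (0.69), with no filter, and without control replicate 1 (0.63), X-3 replicate 2 (0.76) or X-3 replicate 3 (0.77).

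Il6st encodes gp130, the chain that most ligands of the family share. Its probe lies at chr13:113296586-113296645 (plus strand, mm9). The Il6st log2 level was 4.21, 4.06 and 4.04 with X-1 and 4.20, 4.50 and 4.54 with X-3, against 3.42, 3.36 and 3.30 in controls. All treated arrays lay above all controls. Il6st rose by 0.74 ± 0.13 with X-1 (1.67-fold, limma adjusted p = 0.00101) and by 1.05 ± 0.13 with X-3 (2.07-fold, adjusted p = 0.000136), but with spike-in scaling the values were −0.18 with X-1 and 0.49 with X-3, neither called.

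Il6ra encodes the alpha chain that binds interleukin-6. Its probes lie at chr3:89680743-89680802 and chr3:89690491-89690550 (minus strand, mm9). At its brighter probe, at base 1208, the log2 level was −2.28, −3.30 and −3.03 with X-1 and −3.63, −1.83 and −1.87 with X-3, against −4.17, −4.39 and −4.11 in controls. All treated arrays lay above all controls, but replicate 1 of X-3 was the lowest treated array while the other 2 X-3 arrays were the highest. Il6ra rose by 1.36 ± 0.46 with X-1 (2.56-fold, limma adjusted p = 0.0319) and by 1.78 ± 0.46 with X-3 (3.44-fold, adjusted p = 0.00958). The X-1 call did not hold without X-1 replicate 1 (1.06, adjusted p = 0.113) or X-1 replicate 3 (1.44, adjusted p = 0.0577), nor without any 1 of the 3 controls, where the adjusted p ranged from 0.0615 to 0.0859, and was lost with no filter (adjusted p = 0.0646). The X-3 difference was 2.38 without X-3 replicate 1 and 1.18 with normexp correction, both called. With spike-in scaling the X-1 value was 0.19 and not called, and the X-3 value 1.70 and called. The probe at base 834 gave 1.22 ± 0.37 with X-1 and 1.51 ± 0.37 with X-3, both called, and with spike-in scaling only the X-3 value was (0.0954 with X-1, 1.25 with X-3). The X-1 call at this probe was also lost without control replicate 1 (1.19), control replicate 3 (1.18) or X-1 replicate 1 (1.03).

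Of 4 other receptor chains 3 were measured, with 0 higher, 2 lower and 1 not called with X-1, and 0 higher, 1 lower and 2 not called with X-3. Among all genes tested, 28.0% were called higher and 28.2% lower with X-1, and 28.9% and 26.4% with X-3. Il11ra1, the private chain for interleukin-11, fell by 1.86 ± 0.15 with X-1 (limma adjusted p = 1.07e-05) and by 1.29 ± 0.15 with X-3 (adjusted p = 0.000118). Il31ra, a chain that pairs with the oncostatin M receptor for interleukin-31, fell by 0.98 ± 0.25 with X-1 (−0.57 and not called with normexp correction) and differed by −0.32 ± 0.25 with X-3. Cntfr, the private chain for ciliary neurotrophic factor, was at −0.15 ± 0.18 with X-1 and 0.25 ± 0.18 with X-3, neither called, and with spike-in scaling at −0.998 (called lower) and −0.28.

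Stat3 encodes the transcription factor that gp130 activates. Its probe lies at chr11:100749598-100749657 (minus strand, mm9). The Stat3 log2 level was 5.58, 5.49 and 5.40 with X-1 and 4.02, 5.32 and 5.06 with X-3, against 4.85, 4.68 and 4.49 in controls. X-1 lay above all controls. Of the X-3 arrays, replicates 2 and 3 lay above all controls and replicate 1 below all of them. Stat3 was called higher with X-1, at 0.81 ± 0.29 (1.76-fold, limma adjusted p = 0.0403), but with spike-in scaling the value was −0.04. The X-1 call was also lost without any 1 of the control or X-1 arrays, where the difference ran from 0.72 to 0.90 and the adjusted p from 0.0558 to 0.115. It was lost as well with median scaling (adjusted p = 0.0558), quantile normalization (0.122), no filter on dim probes (0.0818) and the deposited series table (0.120). With X-3 the difference was 0.13 ± 0.29 (95% CI −0.54 to 0.79, adjusted p = 0.733). Without X-3 replicate 1 it was 0.52 (adjusted p = 0.0130), and on slides 1, 2 and 3 it was −0.83, 0.64 and 0.57. With median scaling it was −0.08 and with spike-in scaling −0.09. STAT3 acts once phosphorylated, which mRNA arrays do not measure.

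Socs3 encodes the suppressor that binds gp130 and the JAK kinases. Its probe lies at chr11:117827480-117827539 (minus strand, mm9). The Socs3 log2 level was 4.65, 4.72 and 5.62 with X-1 and 5.31, 5.13 and 5.09 with X-3, against 3.38, 2.23 and 2.70 in controls. All treated arrays lay above all controls. Socs3 rose by 2.23 ± 0.32 with X-1 (4.68-fold, limma adjusted p = 0.000347) and by 2.41 ± 0.32 with X-3 (5.30-fold, adjusted p = 0.000247). Its X-1 difference was 1.27, 2.49 and 2.92 on slides 1, 2 and 3, and its X-3 difference 1.93, 2.90 and 2.39. With spike-in scaling both were called, at 1.81 and 1.94.

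**Figure D3:**
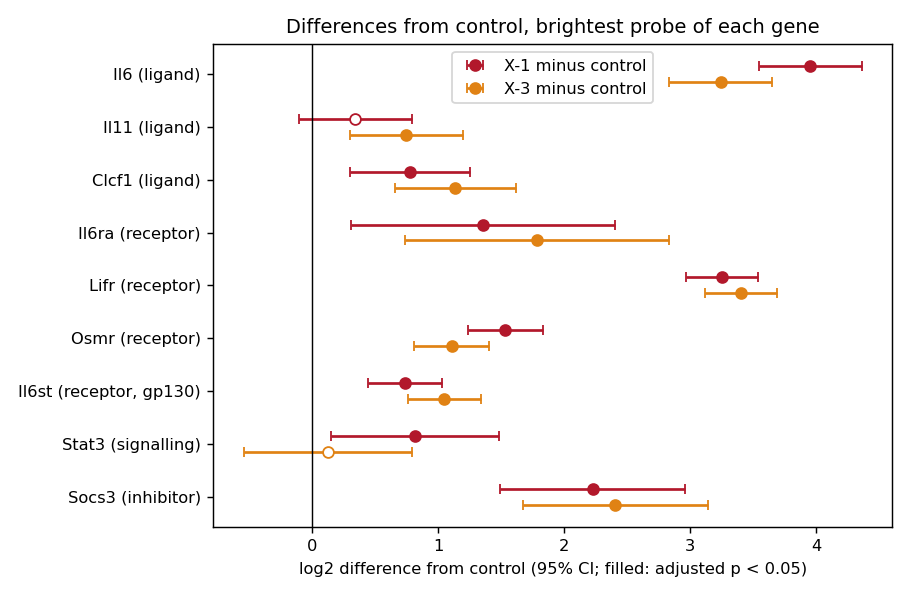
Log2 difference from control for the 9 genes at their brightest probe, X-1 above X-3 in each pair, with 95% confidence intervals from the limma fit over all genes. Filled points had an adjusted p under 0.05. Il6 with X-1 is farthest right at 3.95. With spike-in scaling Il11, Clcf1, Il6st and Stat3 fall below 0 with X-1, and Stat3 with X-3.

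Between the compounds, compared at the same dose and time as 1 pair, 1 of the 9 genes was called, where 10.5% of all genes tested were (3.56% higher with X-1, 6.97% lower). This was Il6, higher with X-1 by 0.71 ± 0.18 log2 (1.63-fold, 95% CI 0.30 to 1.12, limma adjusted p = 0.0398 over all genes). The difference was 0.31, 0.86 and 0.96 on slides 1, 2 and 3, positive on all 3. The call is close to the threshold. It was lost without any 1 of the X-1 arrays, without X-3 replicate 2 or 3, and without control replicate 3, where the value stayed between 0.59 and 0.73 and the adjusted p ran from 0.0668 to 0.122. It was lost as well with median scaling (adjusted p = 0.155), spike-in scaling (0.112) and no filter (0.116), where the value stayed at 0.71. Without X-3 replicate 1 the value was 0.89 and called.

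The other 8 genes were not called between X-1 and X-3, and their intervals bound the differences. The interval of X-1 minus X-3 was 0.13 to 0.72 for Osmr (0.43, limma adjusted p = 0.0724), −0.60 to −0.02 for Il6st (−0.31, adjusted p = 0.156) and 0.02 to 1.35 for Stat3 (0.69, adjusted p = 0.171). It was −0.86 to 0.04 for Il11, −0.84 to 0.11 for Clcf1, −1.47 to 0.62 for Il6ra, −0.43 to 0.14 for Lifr at base 2158, and −0.91 to 0.56 for Socs3. These intervals do not show that the compounds act alike. The count depended on X-3 replicate 1. Without it, 5 of the 9 genes were called, with Il6 at 0.89 and Osmr at 0.51 higher with X-1, and Il11 at −0.60, Il6st at −0.42 and Il6ra at −1.02 lower. The Lifr probe at base 7563 was higher with X-1 than X-3 by 1.07 ± 0.17 (2.11-fold, limma adjusted p = 0.0101 over all probes, higher on all 3 slides). This call held under all alternatives run. At base 3232 Lifr was higher with X-1 by 0.54 ± 0.14 (adjusted p = 0.0470). That call was lost without each of 7 of the 9 arrays in turn, where the difference ran from 0.48 to 0.59 and the adjusted p from 0.0676 to 0.163. It was also lost with replicate number as a block (adjusted p = 0.0572), and with median scaling, spike-in scaling, normexp correction and no filter, where the adjusted p ran from 0.0773 to 0.506. At bases 2324 and 3323 all X-1 arrays lay above all X-3 arrays, but neither difference was called. It was 0.63 at base 2324 (interval 0.13 to 1.14, limma adjusted p = 0.113 over all probes). At base 3323 it was 0.52 (interval 0.18 to 0.86, adjusted p = 0.0641). The probe at base 2158, which stands for Lifr in the gene count, was the only Lifr probe with a negative difference (−0.15).

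Of 9 JAK kinases and STAT factors other than Stat3, which act inside the cell, 3 were higher, 3 lower and 3 not called with X-1, and 2 higher, 2 lower and 5 not called with X-3. These shares lie near those of all genes called higher and lower (28.0% and 28.2% with X-1, 28.9% and 26.4% with X-3). Jak1, the main kinase of gp130, rose by 1.65 ± 0.16 with X-1 (limma adjusted p = 2.31e-05) and by 1.43 ± 0.16 with X-3 (adjusted p = 6.65e-05). Jak2 rose by 1.33 ± 0.16 with X-1 and by 1.08 ± 0.16 with X-3, but with spike-in scaling it was at 0.38 and 0.25, not called. Tyk2, another JAK kinase, was at −0.40 ± 0.30 with X-1 and 0.41 ± 0.30 with X-3, neither called, and with spike-in scaling at −1.72 (called lower) and −0.32. Stat6, the factor of interleukin-4 signalling, fell by 1.01 ± 0.13 with X-1 and by 0.89 ± 0.13 with X-3. Stat2, a factor of interferon signalling, rose with X-1 (1.22 ± 0.30), though not with spike-in scaling (0.31). Stat5b was called lower with X-3 at its brightest probe (−0.50 ± 0.15), but the mean of its kept probes gave 0.87. The call was lost with no filter, and without control replicate 1 (−0.46) or 2 (−0.49) or X-3 replicate 2 (−0.44) or 3 (−0.42).

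Of 19 feedback inhibitors and adaptors, 8 were higher, 5 lower and 6 not called with X-1, and 9 higher, 4 lower and 6 not called with X-3, beside the same shares of all genes (28.0% higher and 28.2% lower with X-1, 28.9% and 26.4% with X-3). Socs6 rose by 2.20 ± 0.14 with X-1 and by 1.85 ± 0.14 with X-3. Socs7 rose by 1.65 ± 0.36 with X-1 and by 1.68 ± 0.36 with X-3, with 2 of its 3 control arrays well above background. Socs1, an inhibitor of JAK kinases, rose by 1.41 ± 0.20 with X-1 (limma adjusted p = 0.000256) and was called at 0.71 ± 0.20 with X-3 (adjusted p = 0.0130), where spike-in scaling gave −0.05 and median scaling 0.51, not called. Socs2, an inhibitor best known from growth hormone signalling, fell by 2.19 ± 0.19 with X-1 and by 2.14 ± 0.19 with X-3. Pias1, an inhibitor of STAT factors, fell by 1.79 ± 0.15 with X-1 and by 1.94 ± 0.15 with X-3.

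Of 24 genes known from the literature as STAT3 targets, 19 were higher, 1 lower and 4 not called with X-1, and 19 higher, 2 lower and 3 not called with X-3. Of all genes 28.0% were called higher and 28.2% lower with X-1, and 28.9% and 26.4% with X-3. The median difference was 2.01 log2 with X-1 and 1.51 with X-3, beside 0.058 and 0.054 over all genes. Lcn2, the acute-phase protein lipocalin-2, rose by 5.16 ± 0.23 with X-1 and by 4.48 ± 0.23 with X-3. Hp, haptoglobin, rose by 3.80 ± 0.31 with X-1 and by 4.10 ± 0.31 with X-3. Serpina3n, an acute-phase protease inhibitor, rose by 4.06 ± 0.30 with X-3, with 2 of its 3 control arrays well above background, and Saa3, a serum amyloid A protein, by 3.47 ± 0.15 with X-1. Fos, an AP-1 subunit, rose by 3.83 ± 0.22 with X-1 and by 3.31 ± 0.22 with X-3. The gene that fell with both was Ccnd1, cyclin D1, at −2.07 ± 0.16 with X-1 and −1.91 ± 0.16 with X-3, and with X-3 Twist1 was also lower (−0.56 ± 0.18). Both were named after their values were seen. Many of these genes also answer to NF-kB or other pathways, and the list is described by its counts only.

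Of 11 genes listed for control of Il6 mRNA, by its transcription, stability or translation, 10 were higher, 0 lower and 1 not called with X-1, where 28.0% of all genes were called higher. With X-3, 8 were higher, 0 lower and 3 not called, where 28.9% of all genes were called higher. Arid5a, which stabilises Il6 mRNA, rose by 3.10 ± 0.30 with X-1 and by 3.73 ± 0.30 with X-3. Zc3h12a, the regnase-1 gene, whose product degrades Il6 mRNA, rose by 2.01 ± 0.31 with X-1 and by 1.60 ± 0.31 with X-3. Zfp36, tristetraprolin, which also destabilises AU-rich mRNAs, rose by 2.23 ± 0.16 with X-1 and by 2.22 ± 0.16 with X-3. Nfkbiz, an NF-kB cofactor needed for Il6 transcription, rose by 2.72 ± 0.15 with X-1 and by 2.67 ± 0.15 with X-3.

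**Figure D4:**
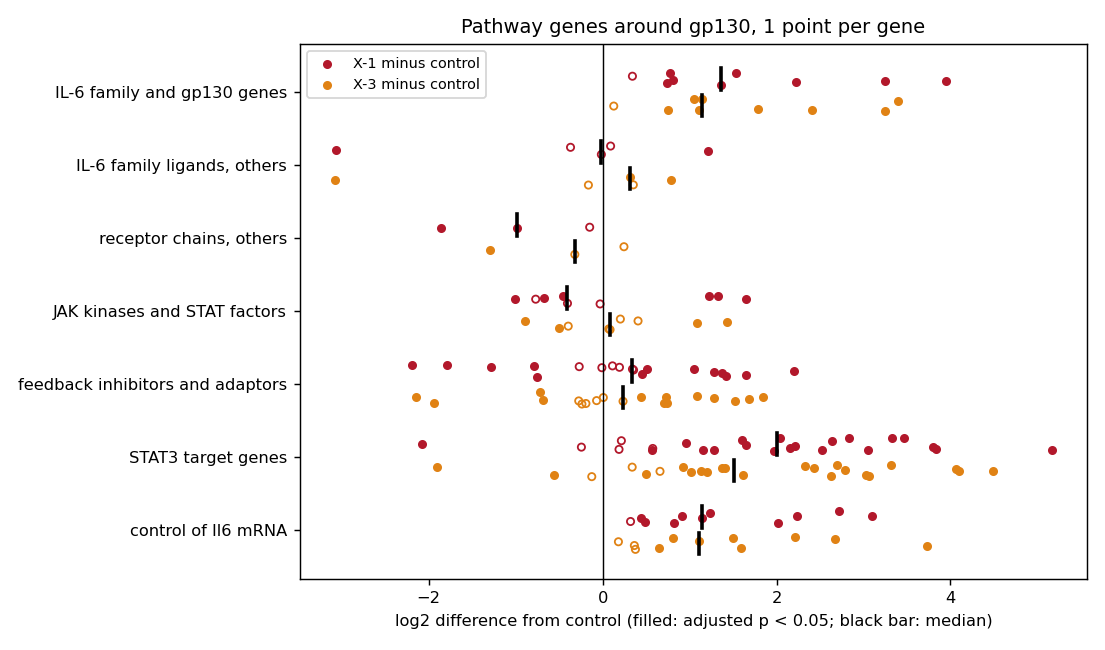
Log2 difference from control for each measured gene of the IL-6 family and of 6 lists around it, 1 point per gene, X-1 above X-3 in each pair of rows. Filled points had an adjusted p under 0.05 (limma) and black bars are medians. The STAT3 target list has medians of 2.01 and 1.51, while the JAK and STAT list spreads to both sides of 0.

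The genes nearest to Il6 in pattern over the 9 arrays, by Euclidean distance of log2 levels centred on the control mean, were Cd274 (distance 0.400), Fos (0.454) and Slc35e2 (0.614). Cd274, which encodes the immune checkpoint ligand PD-L1, had log2 levels of 2.44, 2.32 and 2.34 with X-1 and 2.14, 1.68 and 1.48 with X-3, against −1.29, −1.56 and −1.60 in controls. As for Il6, its 3 groups did not overlap. The genes nearest to Socs3 were Il4ra (distance 0.705), the interleukin-4 receptor alpha chain, Rasgrp2 (0.760) and Nat8f1 (0.882). Il4ra had log2 levels of 2.33, 2.48 and 3.34 with X-1 and 3.01, 3.26 and 3.28 with X-3, against 0.80, 0.19 and 0.69 in controls. Like Socs3, it was highest among the X-1 arrays in replicate 3. The likeness of these genes to Il6 and Socs3 follows from how they were chosen. Rasgrp2 was well above background on 0 of the 3 control arrays.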

How the data were processed

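RNA of 9 samples (0.5 µg each, labelled with Cy3, per the labels) was measured on 1-colour arrays. The deposited spot intensity values were background-subtracted and detrended within arrays by Agilent Feature Extraction, version 10.5.1.1 for replicate 1 and 10.7.3.1 for the others per the file headers, while the submitters' processing notes name 9.1. The deposited series table, a standardized score per probe by the authors, was an alternative only.

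Log2 intensity was reduced by each array's 75th percentile. A probe had to be well above background on all 3 arrays of some group, 214 outlier probes were left out, and each gene took its brightest kept probe. Probe names came from transcript accession (24990), symbol (6290) or synonym (1625), and 8055 could not be matched. Unmatched probes kept the array's own name, and each such name that passed the filter counted as a gene in the all-gene shares. Two-sided tests used limma 3.58.1 (R 4.3.3), all 9 arrays in 1 fit, with Benjamini-Hochberg adjustment over 16733 genes or 25285 probes and a threshold of 0.05. The script was tested on simulated data. The series design text speaks of independent experiments, and p-values measure the spread between these arrays, whose number limits precision.

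The genes, lists and tests were chosen with earlier results of these data known. Named were the 9 genes, the 4 list genes with the largest difference called in 1 direction on all slides per comparison with control, 10 fixed pathway genes (some of them not reported here), and the 3 genes nearest in pattern to Il6 and Socs3. Alternatives were median, quantile and spike-in scaling, normexp (offset 50, on median signals, since mean signals were not in every file), no filter, mean of probes, replicate block, the deposited table, and leaving out each array. Same-numbered arrays share a slide. Their deviations correlated at 0.517, 0.318 and 0.271 for X-1 and control, and at 0.238, 0.112 and 0.230 for X-3 and control. For X-1 and X-3 the values were −0.041, −0.182 and 0.156. Arrays of different number were not compared in this way, so the values do not establish a pairing. The main fit was unpaired, with the replicate block as the alternative.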

Additional observations from a re-analysis of the deposited data

How the results depend on the processing

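Scaling on spike-in RNA, which uses slides 2 and 3 only, called 4 of the 9 genes with X-1, 4 with X-3 and 2 between the compounds (Clcf1 at −0.90 and Il6ra at −1.51, both lower with X-1). On slides 2 and 3 taken singly, percentile scaling gave X-1 minus X-3 differences of −0.48 and −0.92 for Clcf1, and −1.47 and −1.16 for Il6ra. The change of scaling and the loss of slide 1 were not tested apart. With spike-in scaling the X-1 differences became −0.45 for Il11, −0.34 for Clcf1, −0.18 for Il6st, −0.0403 for Stat3 and −0.54 for the Lifr probe at base 7563. The X-3 differences became −0.0937 for Stat3, −0.44 for Il27, −0.28 for Cntfr, −0.32 for Tyk2 and −0.0461 for Socs1. Median scaling turned Stat3 with X-3 to −0.0762 and normexp correction turned Cntfr with X-1 to 0.10. The mean of probes turned Stat5b with X-3 to 0.87 and Lifr between the compounds to 0.52 (adjusted p = 0.0298, limma), since the Lifr probes disagree. Between X-1 and X-3, 1762 genes were called, against 460 with median scaling, 1078 with normexp and 545 with no filter, and from 582 to 3407 when 1 array was left out. It was 1053 without control replicate 3, 582 and 600 without X-1 replicates 2 and 3, and 3407, 725 and 738 without X-3 replicates 1, 2 and 3. The members called there were 0 with median scaling, 0 with no filter, 3 with the mean of probes, and 0 to 5 when 1 array was left out. Against control, X-1 gave 7 called genes with median scaling, quantile normalization and the deposited table, and 6 with no filter, while X-3 gave 8 in each. Leaving out 1 array gave 6 to 8 called genes with X-1 and 8 to 9 with X-3. Over those fits Stat3 with X-3 ran from −0.13 to 0.52. The replicate block gave 8, 8 and 1 called genes and changed no call of the 9 genes. The cause of these shifts was not tested. All 9 genes were well above background on all arrays, but the handling of background changed the size of differences. With normexp correction Il6 with X-1 was at 2.90, against 3.95 in the main fit, and still called.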
